A study of Homo sapiens with 6 samples.

Results

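The TNF superfamily ligands and receptors were examined in EndoC-βH1 cells, a line of human pancreatic beta cells, with and without exposure to inflammatory cytokines. Members were taken by gene symbol: every symbol of the TNFSF or TNFRSF series, together with TNF, LTA, LTB, LTBR, FAS, FASLG, CD40, CD40LG, CD27, CD70, NGFR, EDAR and RELT. This rule found 45 symbols, 17 ligands and 28 receptors, in 44 of the 61695 loci of the deposited count tables. Of the 6 libraries, 3 came from cells exposed for 24 h to IL-1β at 5 ng/ml, TNF-α at 10 ng/ml, IFN-γ at 50 ng/ml and IL-17 at 100 ng/ml, and 3 came from control cells without the cocktail. All cells were kept in serum-free medium with 11 mM glucose, and the labels describe the controls both as cells before exposure and as cells left without cytokines for 24 h. EndoC-βH1 is a single immortalised line that originates from fetal pancreas, and the series title calls it an insulinoma line. The deposited tables hold a value per group or per comparison, so levels are given for the 2 groups and not for single libraries. The labels do not say whether libraries of a group came from separate cultures, so p-values reflect only how these libraries varied, and that variation may be technical.

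Ligands of the TNF superfamily are mostly trimers anchored in the cell membrane that can be shed, and their receptors carry cysteine-rich repeats outside the cell. Receptors with a death domain can assemble complexes that activate caspases, receptors that bind TRAF adaptors activate NF-κB and MAP kinases, and decoy receptors bind ligand without signalling. In islets the family is best known through TNF-α, which together with IL-1β and IFN-γ impairs beta cells, and through FAS, a death receptor studied in autoimmune diabetes.

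More members were higher than lower in cytokine-exposed cells. Of the 34 loci that carried an adjusted p in the authors' deposited count table, 28 passed the threshold of 0.05 in the authors' DESeq test, against 37.7% of all 30206 tested loci. Among them 23 (67.6%) were higher and 5 (14.7%) lower with cytokines, against 18.0% and 19.7% of all tested loci in the deposited count tables. Of the 34 loci, 18 were higher and at least 2-fold changed, against 6.53% of all tested loci in the deposited tables. The median log2 fold change, cytokine over control, was 1.27 over these 34 loci and 0.05 over all tested loci in the deposited tables. The other 10 loci had no adjusted p: 4 had no reads and 6 had a mean of at most 0.671 normalized counts. A locus of few reads passes a filter on mean counts more easily when it is high in a group, so these shares describe the tested loci and not the whole family. Cuffdiff tested 29 member loci in the authors' deposited FPKM gene table, and 16 were higher and 2 lower at q under 0.05, against 17.8% and 17.9% of all tested genes. Of the 28 loci that passed in the deposited count table, 18 passed in the same direction in the deposited FPKM table, 10 did not pass or were not tested there, and 0 passed in the opposite direction. Both tools ran on the same libraries.

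**Figure D1:**
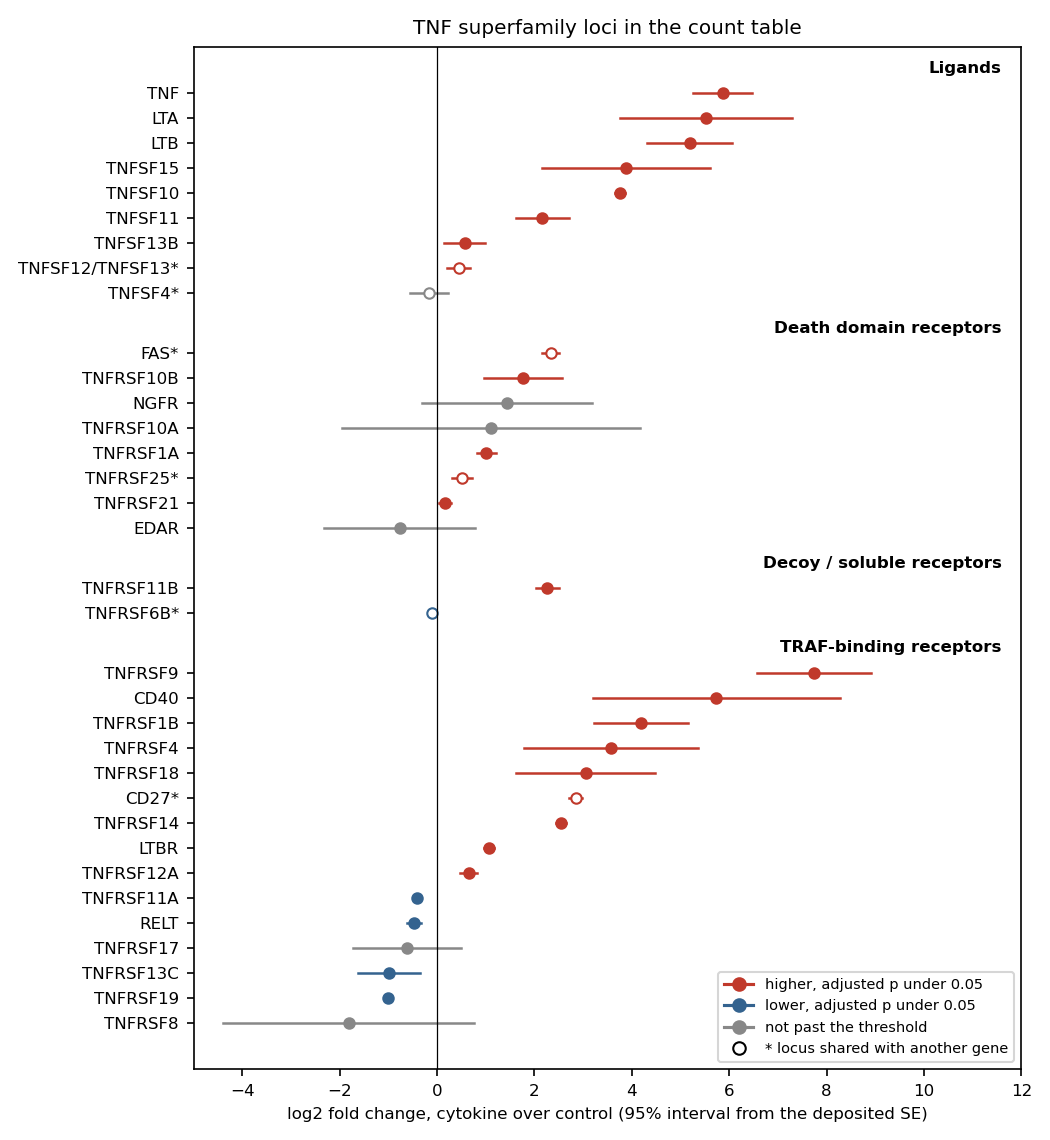
Log2 fold change (cytokine over control) of the 34 tested member loci in the deposited count table, by role, with 95% intervals from the deposited standard error (SE). Red points are higher and blue points lower at adjusted p under 0.05, grey points did not pass, and open points with an asterisk are loci shared with another gene (microRNA genes aside). TNFRSF9 has the point farthest to the right, at 7.74, and TNFRSF19 the point farthest left among those that fell, at -1.01.

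Promoter windows are shown for 5 members that were picked for large rises at 50 or more normalized counts. The cocktail holds an interferon (IFN-γ) and activators of NF-κB (TNF-α, IL-1β, IL-17), and motifs linked to both were searched. Whether these motifs bear on the rises was not tested. Each window is the RefSeq sequence of the 250 bases before the gene's start (build GRCh38.p14, the first window listed per gene), printed 5′ to 3′ on the gene's strand. Capitals mark matches, on either strand, to the GAS motif (interferon-γ activated site) TTCNNNGAA, to a short core of the interferon-stimulated response element (ISRE), GAAANNGAA, or to the NF-κB consensus. The start used by RefSeq need not be that of other annotations: the windows of TNFRSF9 and TNFRSF14 lie wholly inside the GENCODE gene, and those of LTB and TNFSF10 overlap it by 97 and 45 bases. The windows lie at chr1:7940840-7941089 (minus strand, TNFRSF9), chr6:31575315-31575564 (plus strand, TNF), chr6:31582426-31582675 (minus strand, LTB), chr3:172523431-172523680 (minus strand, TNFSF10) and chr1:2556121-2556370 (plus strand, TNFRSF14).
TNFRSF9: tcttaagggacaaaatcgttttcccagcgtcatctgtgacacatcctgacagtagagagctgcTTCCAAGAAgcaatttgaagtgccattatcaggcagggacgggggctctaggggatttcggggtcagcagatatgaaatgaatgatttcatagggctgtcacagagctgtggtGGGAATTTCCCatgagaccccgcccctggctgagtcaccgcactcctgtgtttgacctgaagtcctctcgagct
TNF: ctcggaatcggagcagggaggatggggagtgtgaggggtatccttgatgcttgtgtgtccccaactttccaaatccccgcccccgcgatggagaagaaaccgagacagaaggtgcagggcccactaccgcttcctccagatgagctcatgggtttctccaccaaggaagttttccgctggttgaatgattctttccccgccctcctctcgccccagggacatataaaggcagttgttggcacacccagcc
LTB: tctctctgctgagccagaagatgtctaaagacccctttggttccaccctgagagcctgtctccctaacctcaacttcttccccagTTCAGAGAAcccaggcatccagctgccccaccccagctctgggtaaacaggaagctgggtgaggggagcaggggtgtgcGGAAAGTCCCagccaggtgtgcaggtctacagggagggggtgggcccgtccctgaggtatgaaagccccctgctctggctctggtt
TNFSF10: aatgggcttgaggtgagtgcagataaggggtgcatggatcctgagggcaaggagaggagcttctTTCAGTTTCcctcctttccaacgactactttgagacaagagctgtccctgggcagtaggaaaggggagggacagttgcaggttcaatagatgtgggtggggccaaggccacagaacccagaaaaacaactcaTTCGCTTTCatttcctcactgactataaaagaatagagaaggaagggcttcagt
TNFRSF14: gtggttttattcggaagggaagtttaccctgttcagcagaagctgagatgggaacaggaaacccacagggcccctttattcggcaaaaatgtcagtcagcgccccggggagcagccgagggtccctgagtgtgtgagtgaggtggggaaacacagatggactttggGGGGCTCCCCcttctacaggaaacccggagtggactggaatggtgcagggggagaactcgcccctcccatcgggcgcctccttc

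TNFRSF9 held a GAS match and a pair of overlapping NF-κB matches that begin 74 and 73 bases before the start. LTB held a GAS match and an NF-κB match, TNFSF10 held 2 ISRE core matches, beginning 186 and 54 bases before the start, and TNFRSF14 held an NF-κB match. The TNF window held no match to these 3 motifs. No match of a motif overlapped a match of another. Of the 45 members, 29 had a window in the RefSeq table, and each motif was found in 4 of them. Over all 27305 promoters of the table, 6.78% held the GAS motif, 7.06% the ISRE core and 5.05% the NF-κB consensus in a window of the same length. Among members that were higher in the deposited count table, 7 of 18 windows held at least 1 motif, and among those that were lower 0 of 4 did. At least 1 motif was also found in 3 of the 5 windows of members without reads or an adjusted p (FASLG, TNFSF9 and TNFSF14), in 0 of 2 that did not pass, and in 17.6% of all promoters. A match is a run of letters and not evidence of binding.

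Among ligands, TNF and both lymphotoxins had the highest estimates of the log2 fold change in the deposited count table. TNF (chromosome 6, 31575565 to 31578336, build hg38, GENCODE release 44), whose protein was itself part of the cocktail, stood at 465 normalized counts in cytokine-exposed cells and 7.95 in control cells, worked out from the deposited count table. Its log2 fold change was 5.87 ± 0.31 (SE) in the authors' deposited table (adjusted p = 5.74e-80). LTA, which encodes lymphotoxin-α, a soluble ligand of the TNF receptors, rose by 5.52 ± 0.90 in the authors' deposited count table (adjusted p = 5.34e-09). Its level there was 43.6 counts with cytokines and 0.952 in control. Over a whole group the mean and fold change solve to about 131 counts with cytokines and 3 in control, a 45.8-fold ratio. Its 95% counting interval of 14.6 to 214 takes these solved counts as if they had been observed. In the authors' deposited FPKM table LTA did not pass (q = 0.176). LTB encodes lymphotoxin-β, which anchors lymphotoxin-α at the membrane, and rose by 5.19 ± 0.44 in the authors' deposited count table (adjusted p = 1.76e-30), to 150 normalized counts, against 4.12 in control. The 95% intervals of the 3 log2 fold changes overlapped (5.27 to 6.47 for TNF, 3.75 to 7.29 for LTA and 4.32 to 6.06 for LTB), so they are not ordered here. LTB had few counted reads for its FPKM. It had 4.21 normalized counts per FPKM in cytokine-exposed cells, against 39.6 to 267 in the 20 other member loci of a single symbol that passed the test in the deposited tables, so its count level is not comparable with theirs. The cause was not tested. On the FPKM scale, which divides by length, LTB stood at 35.6 with cytokines and 0.503 in control, and TNF at 6.76 and 0.0925, in the authors' deposited table.

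TNFSF10 encodes TRAIL, a ligand that can trigger apoptosis, and it had the highest FPKM of all members in cytokine-exposed cells. It stood at 76.5 FPKM with cytokines and 5.35 FPKM in control in the deposited FPKM table, and at 5601 and 414 normalized counts in the count table. Its log2 fold change of 3.76 ± 0.05 in the deposited count table was a 13.5-fold difference with a small error and an adjusted p listed as 0. TNFSF15, a ligand of TNFRSF25, rose by 3.88 ± 0.88 in the authors' deposited count table (adjusted p = 4.10e-05), with 18.6 counts with cytokines against 1.26 in control, and was too low for a test in the FPKM table. TNFSF11 encodes RANKL, known for driving osteoclast formation, and rose by 2.16 ± 0.28 in the authors' deposited count table (adjusted p = 8.31e-14). Its level was 116 normalized counts in cytokine-exposed cells and 26.0 in control cells, or 1.51 and 0.306 FPKM in the deposited tables.

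The remaining ligands moved less or were barely read. TNFSF13B, the B cell survival factor BAFF, rose by 0.57 ± 0.21 in the authors' deposited count table (adjusted p = 0.0215). TNFSF12 (TWEAK) and TNFSF13 (APRIL), neighbours on chromosome 17, were counted as a single locus that rose by 0.44 ± 0.12 in the authors' deposited count table (adjusted p = 0.000625) and did not pass in the deposited FPKM table (q = 0.283). TNFSF4, the ligand of TNFRSF4, shared a locus with a noncoding RNA and stood at -0.16 ± 0.20 in the authors' deposited count table (adjusted p = 0.616) but at 0.60 in the FPKM table (q = 0.344). No reads were counted for CD40LG, FASLG, TNFSF8 and TNFSF18, ligands best known from lymphocytes and antigen-presenting cells. CD70, TNFSF9 and TNFSF14 had means of 0.671, 0.182 and 0.611 normalized counts over both groups in the deposited count table and no adjusted p.

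**Figure D2:**
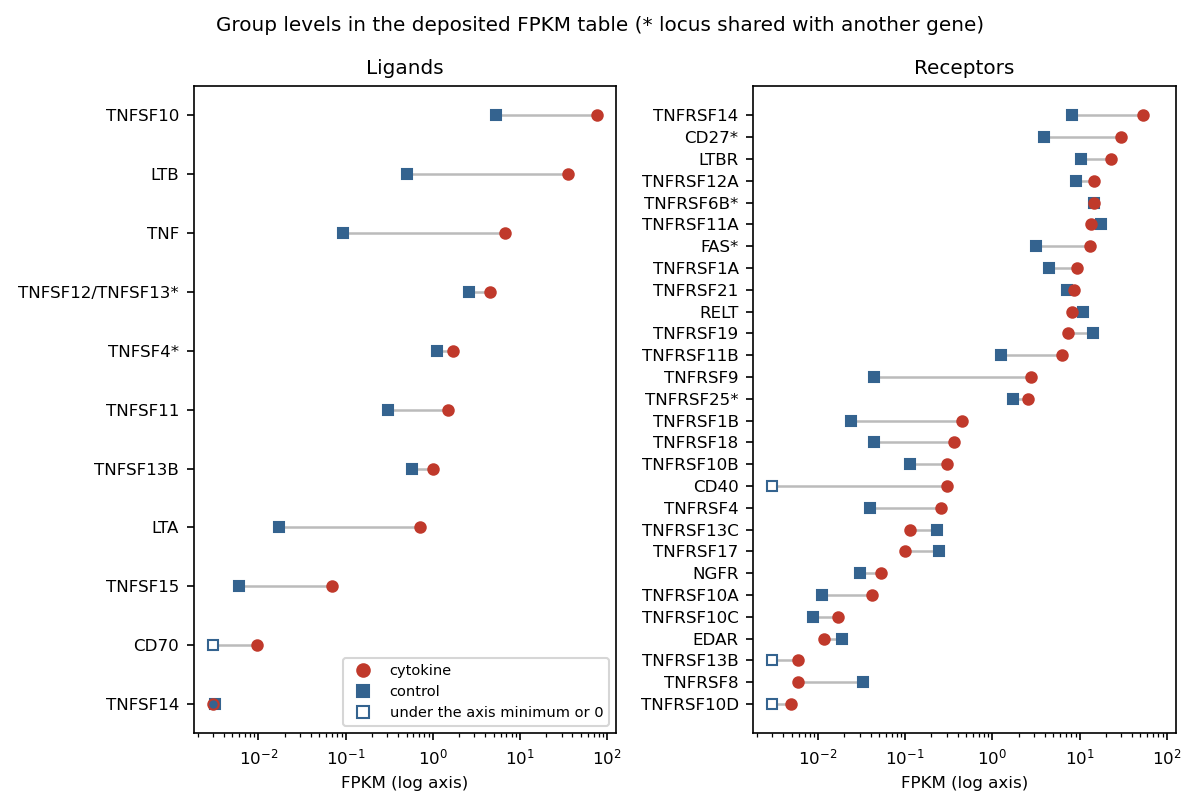
FPKM (log axis) of member loci in cytokine-exposed cells (red circles) and control cells (blue squares) from the deposited FPKM gene table, in order of the cytokine level. Open symbols mark levels under the axis minimum or at 0, and loci listed at 0 in both groups are not drawn. TNFSF10 at 76.5 FPKM and TNFRSF14 at 53.9 FPKM lead the ligands and the receptors with cytokines, while TNFRSF11A (17.5 FPKM) leads in control.

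Of the 8 loci with death domain receptors, 5 rose, 0 fell and 3 did not pass in the deposited count table, where 18.0% of all tested loci were higher and 19.7% lower. The 5 include the loci that FAS and TNFRSF25 share with other genes. FAS, the receptor for FAS ligand, was counted together with its neighbour STAMBPL1, a deubiquitinase, and this locus rose by 2.33 ± 0.08 in the authors' deposited count table (adjusted p = 1.30e-165). TNFRSF1A (chromosome 12, 6328757 to 6342114), the ubiquitous receptor for TNF, stood at 486 normalized counts with cytokines and 241 in control, a log2 fold change of 1.01 ± 0.10 in the authors' deposited table (adjusted p = 1.50e-23). TNFRSF10B, a receptor for TRAIL, rose by 1.76 ± 0.41 in the authors' deposited count table (adjusted p = 7.81e-05), with 39.9 counts with cytokines and 11.7 in control, and did not pass in the deposited FPKM table (q = 0.0734). The other death receptor for TRAIL, TNFRSF10A, had a mean of 1.46 counts and stood at 1.12 ± 1.56 in the authors' deposited table (adjusted p = 0.673). TNFRSF25, a receptor of TNFSF15, shared a locus with PLEKHG5 that rose by 0.51 ± 0.11 in the authors' deposited count table (adjusted p = 1.10e-05). TNFRSF21, an orphan-like death receptor of the nervous and immune systems, was nearly level. It stood at 991 counts with cytokines and 881 in control, a log2 fold change of 0.17 ± 0.06 that passed in the authors' deposited count table (adjusted p = 0.0214). NGFR, the low-affinity neurotrophin receptor, and EDAR, the ectodysplasin receptor, had means of 4.75 and 5.66 counts and did not pass in the authors' deposited count table (adjusted p = 0.230 and 0.531).

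Among decoy and soluble receptors, osteoprotegerin carried the change. TNFRSF11B encodes this soluble trap for RANKL and TRAIL, and it rose by 2.27 ± 0.12 in the authors' deposited count table (adjusted p = 1.53e-73). Its level was 493 normalized counts in cytokine-exposed cells and 102 in control cells, or 6.33 and 1.26 FPKM in the deposited tables. TNFRSF10C and TNFRSF10D, the membrane decoys for TRAIL, had means of 0.506 and 0.546 counts in the deposited table and no adjusted p. TNFRSF6B, a soluble decoy for FAS ligand, lies inside the locus of the DNA helicase gene RTEL1. That locus stood at -0.10 ± 0.04 in the authors' deposited count table (adjusted p = 0.0356), at 0.01 in the deposited FPKM table (q = 0.974), and after re-centring at -0.04 without passing, so no direction is given for it.

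Of 15 tested loci of TRAF-binding receptors without a death domain, 9 rose, 4 fell and 2 did not pass in the deposited count table. The shares over all tested loci were 18.0% higher and 19.7% lower, so the 4 that fell (26.7%) lie near that share of lower loci, and the 9 include the locus shared by CD27. TNFRSF9 (chromosome 1, 7915871 to 7943165), the costimulatory receptor CD137, rose by 7.74 ± 0.60 in the authors' deposited count table (adjusted p = 5.63e-37). This is the highest estimate among members there, but its 95% interval of 6.56 to 8.91 overlapped those of LTA and CD40. It stood at 408 normalized counts with cytokines and 1.91 in control, and at 2.75 and 0.0438 FPKM in the deposited tables, where its FPKM log2 fold change of 5.97 was under the 6.19 of TNF and the 6.15 of LTB. CD40, a receptor of B cells and other antigen-presenting cells, had 18.2 normalized counts with cytokines and was listed at 0 FPKM in control. In the authors' deposited count table it rose by 5.74 ± 1.29 (adjusted p = 3.76e-05). Over a whole group the mean and fold change solve to about 55 counts with cytokines and 1 in control, a 53.3-fold ratio. Since 0 FPKM was listed in control, that 1 count may not be an observed read. The 95% counting interval of 9.47 to 2211 rests on it and is not a measured range. TNFRSF1B, the second receptor for TNF, rose by 4.19 ± 0.49 in the authors' deposited count table (adjusted p = 1.16e-16), to 69.3 counts with cytokines, against 3.80 in control. Its FPKM stayed far under that of TNFRSF1A, at 0.444 with cytokines and 0.0239 in control, against 9.32 and 4.44 for TNFRSF1A in the deposited table. The costimulatory receptors TNFRSF4 and TNFRSF18 rose by 3.58 ± 0.91 and 3.05 ± 0.73 in the authors' deposited count table (adjusted p = 0.000314 and 0.000110), with only 15.0 and 18.4 counts with cytokines and 1.25 and 2.22 in control. Neither passed in the authors' deposited FPKM table (q = 0.370 and 0.201).

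The abundant receptors of this class had smaller errors. TNFRSF14, which binds LIGHT and the inhibitory receptor BTLA, stood at 3365 normalized counts with cytokines and 578 in control, a log2 fold change of 2.54 ± 0.05 in the deposited count table with an adjusted p listed as 0. LTBR, the lymphotoxin-β receptor, rose by 1.06 ± 0.05 in the authors' deposited table (adjusted p = 7.35e-94), to 2047 counts with cytokines, against 979 in control. TNFRSF12A, the receptor for TWEAK, rose by 0.65 ± 0.09 in the authors' deposited count table (adjusted p = 2.81e-12), and its FPKM of 14.8 with cytokines and 9.18 in control did not pass in the deposited FPKM table (q = 0.0800). The locus that holds CD27, the receptor for CD70, rose by 2.84 ± 0.07 in the deposited count table, but no FPKM was listed on CD27 transcripts, and most of the locus was TAPBPL (given with the transcripts).

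The 4 that fell in this class were TNFRSF19, TNFRSF13C, RELT and TNFRSF11A. TNFRSF19 (chromosome 13, 23570370 to 23676104), also known as TROY, fell by 1.01 ± 0.05 (log2) in the authors' deposited count table (adjusted p = 1.43e-106). Its level was 1241 normalized counts in cytokine-exposed cells and 2495 in control cells, and 7.39 and 14.4 FPKM in the deposited tables. TNFRSF11A encodes RANK, the receptor of RANKL, and had the highest control FPKM of all members. It fell by 0.42 ± 0.03 in the authors' deposited count table (adjusted p = 2.19e-33), to 2953 counts with cytokines, against 3950 in control. RELT, an orphan-like receptor, fell by 0.47 ± 0.07 in the authors' deposited count table (adjusted p = 1.80e-10), and did not pass in the deposited FPKM table (q = 0.120). TNFRSF13C, the BAFF receptor of B cells, was low and stood at -0.98 ± 0.33 in the authors' deposited count table (adjusted p = 0.00829), with 23.8 counts with cytokines and 47.0 in control, and at q = 0.442 in the deposited FPKM gene table. In bulk RNA, fewer cells that carry a transcript and less transcript per cell cannot be told apart. TNFRSF8 (CD30) and TNFRSF17 (BCMA) had means of 2.36 and 11.9 counts and did not pass in the authors' deposited table (adjusted p = 0.325 and 0.472), and TNFRSF13B (TACI) had a mean of 0.154 counts and no adjusted p.

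**Figure D3:**
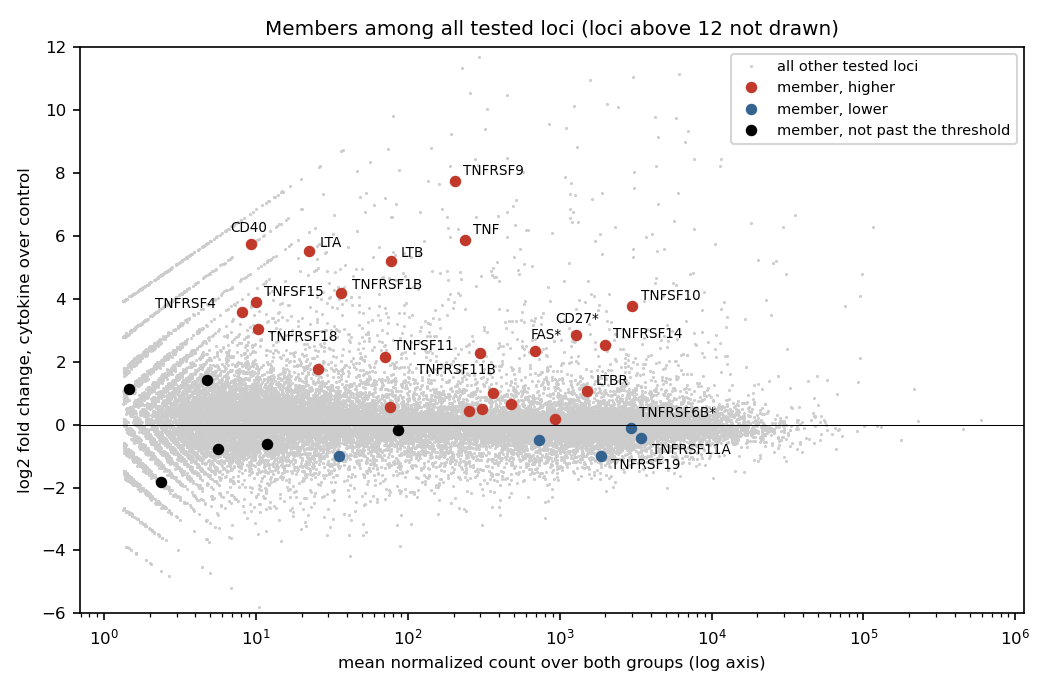
Log2 fold change (cytokine over control) against the mean normalized count over both groups (log axis) for the 34 tested member loci and for all other tested loci (grey) of the deposited count tables. The large rises of CD40, TNFRSF4, TNFSF15 and TNFRSF18 lie at means of about 10 counts or fewer, while TNFSF10, TNFRSF14 and TNFRSF19 lie above 1000 counts, where the SE of members is between 0.03 and 0.07.

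Levels of ligands and receptors were then set side by side on the FPKM scale. At least 1 FPKM was reached by 21 of 44 member loci in cytokine-exposed cells and by 16 in control cells in the deposited FPKM table. By locus these were 7 of ligands with cytokines and 3 in control, and 14 of receptors with cytokines and 13 in control. With members of shared loci taken at the sum of their own annotated transcripts, 6 ligands reached 1 FPKM with cytokines and 2 in control, and 13 receptors with cytokines and 9 in control. Of 31 ligand and receptor pairs, both partners rose in 10 in the deposited count table. No tested ligand locus fell there, so no pair could have both partners lower. Since 8 of 9 tested ligand loci and 15 of 25 tested receptor loci rose, the pair count follows from the single calls. It is not a result about pairing. These 10 pairs joined TNF and LTA with both TNF receptors, LTB with LTBR, TNFSF10 with TNFRSF10B and TNFRSF11B, TNFSF11 with TNFRSF11B, TNFSF12 with TNFRSF12A, and TNFSF15 with TNFRSF25, and several share a member. In 2 of the 10 a partner was called through a locus it shares with another gene (TNFSF12 and TNFRSF25), and no tested transcript of these genes passed. The other 8 pairs have loci of their own, microRNA genes aside. RANKL and RANK moved apart, since TNFSF11 rose and TNFRSF11A fell. In the authors' deposited count table so did BAFF (TNFSF13B, adjusted p = 0.0215) and its receptor TNFRSF13C. TNFRSF13C was low, however, at 0.112 FPKM with cytokines and 0.231 in control, and did not pass in the authors' deposited FPKM gene table (q = 0.442). The RNA of TRAIL was far more abundant than that of its receptors, with 76.5 FPKM for TNFSF10 against 0.302 for TNFRSF10B, 0.0411 for TNFRSF10A and 6.33 for the soluble TNFRSF11B in cytokine-exposed cells in the deposited table. FAS, CD40 and TNFRSF18 rose in a cell line in which no read of their ligands FASLG, CD40LG and TNFSF18 was counted in the deposited table.

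The isoform table showed which transcripts carried these levels. Of 238 annotated transcripts of members, 71 were tested by Cuffdiff and 20 (28.2%) passed at q under 0.05, against 9.87% of all tested transcripts in the deposited isoform table. Of the 20, 17 were higher and 3 lower with cytokines, and they belonged to 13 genes. A test of changed transcript shares was not part of the deposited tables used here, so shares are descriptions.

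Within the shared loci, FAS and CD27 differed. Annotated FAS transcripts summed to 7.63 FPKM with cytokines and 0.151 in control, STAMBPL1 transcripts to 1.55 and 1.44, and unnamed assembled transcripts to 4.07 and 1.55 in the deposited isoform table. The leading FAS transcript stood at 4.69 FPKM with cytokines and 0.0812 in control, a log2 fold change of 5.85 (q = 0.000833) in the authors' deposited table, larger than the 2.33 of the locus. Both CD27 transcripts were listed at 0 FPKM in both groups of the deposited isoform table. TAPBPL, which encodes a peptide editor of MHC class I, held 22.9 FPKM of that locus with cytokines and 2.30 in control, and 3 of its 4 tested transcripts passed in the deposited table. The rise of the CD27 locus therefore cannot be read as a rise of CD27. At the TNFRSF25 locus, TNFRSF25 transcripts summed to 1.01 FPKM with cytokines and 0.598 in control, PLEKHG5 transcripts to 1.08 and 0.892, and the single tested transcript of each did not pass in the deposited table. The TNFRSF6B transcript stood at 1.50 FPKM with cytokines and 0.701 in control (q = 0.917), and RTEL1 transcripts summed to 5.50 and 6.14 in the authors' deposited table. At the locus of TNFSF12 and TNFSF13, TNFSF13 transcripts summed to 2.67 FPKM with cytokines and 1.44 in control, and TNFSF12 transcripts to 0.444 and 0.250, and none of the 6 tested passed in the deposited table.

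**Figure D4:**
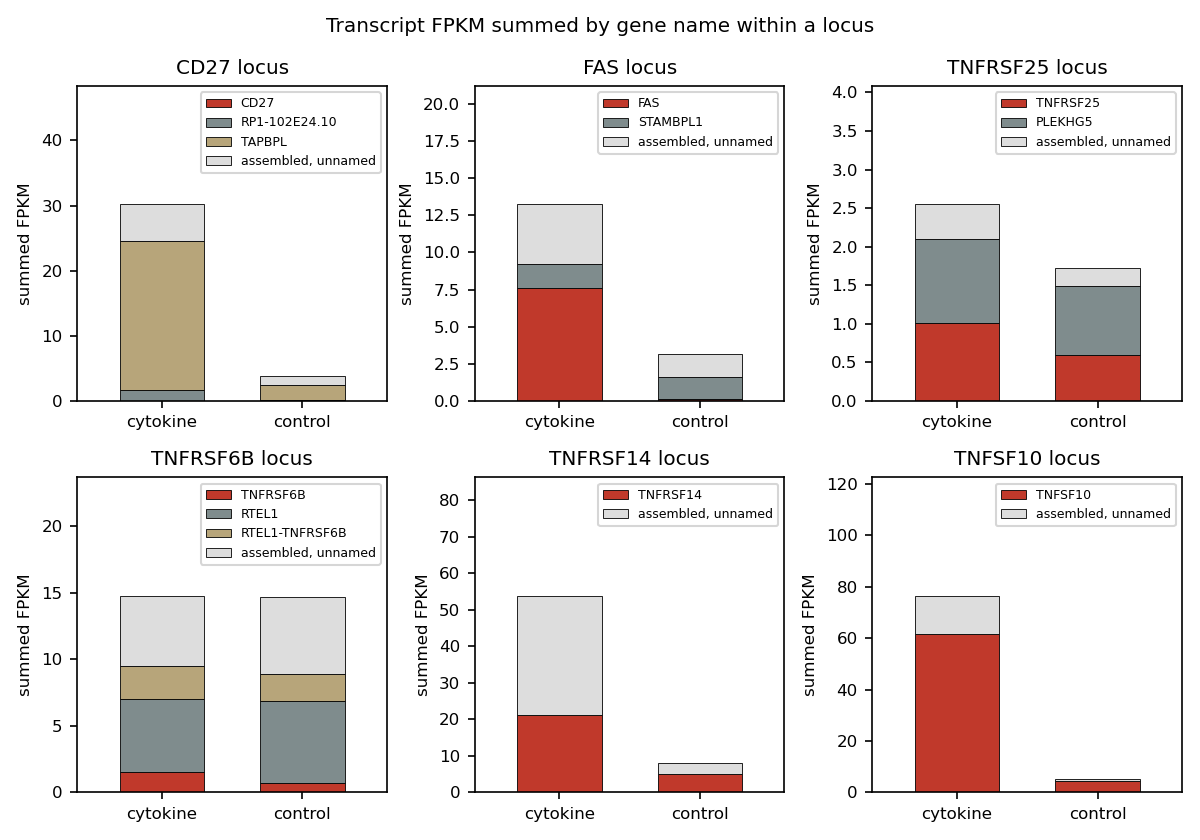
FPKM of transcripts in 6 member loci, summed by gene name and stacked, in cytokine-exposed cells (left bar) and control cells (right bar) of the deposited isoform table. Red is the member, grey-green and tan are other genes of the locus, and light grey is assembled transcripts without a gene name. No red is visible at the CD27 locus, where CD27 transcripts were listed at 0, and at the FAS locus the red part stands at 7.63 with cytokines and 0.151 in control.

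Loci of a single member also differed in their leading transcripts. At TNFRSF14 an assembled transcript without a gene name stood at 26.2 FPKM with cytokines and 0.906 in control (log2 fold change 4.86, q = 0.000833), which was 48.7% and 11.1% of the locus in the authors' deposited isoform table. The transcript that led in control cells stood at 5.08 FPKM with cytokines and 2.35 in control (log2 fold change 1.11, q = 0.000833) in the authors' deposited table. TNFSF10 kept a single leading transcript, at 48.4 FPKM with cytokines and 3.91 in control (q = 0.000833), or 63.3% and 73.2% of the locus in the authors' deposited table. The leading TNFRSF1A transcript stood at 5.05 FPKM with cytokines and 1.72 in control (log2 fold change 1.56, q = 0.000833), or 54.2% and 38.7% of the locus in the authors' deposited table. All 3 tested LTB transcripts were higher with cytokines in the deposited table, the leading one at 23.4 FPKM against 0.227 in control. At TNFSF13B the parts of the locus moved in opposite directions. An unnamed assembled transcript fell to 0.145 FPKM with cytokines, against 0.440 in control (q = 0.00562), while the annotated transcripts summed to 0.873 and 0.140 without a passing transcript in the authors' deposited table. No transcript of TNFRSF9, TNFSF11 or LTA passed, although the loci of TNFRSF9 and TNFSF11 did in the deposited FPKM tables. The 3 member transcripts that were lower belonged to TNFRSF19, TNFRSF11A and TNFRSF13C. The TNFRSF13C transcript had the same FPKM as its locus, 0.112 with cytokines and 0.231 in control, yet passed in the authors' deposited isoform table (q = 0.000833) and not in the deposited gene table (q = 0.442).

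The rule took members by name, and several lie beside each other in the genome. LTA, TNF and LTB lie within 10.5 kb of chromosome 6 (31572054 to 31582522), and all 3 rose in the deposited count table. On chromosome 12, TNFRSF1A, LTBR and the locus with CD27 lie within 123 kb and all 3 loci rose, although CD27 transcripts were listed at 0 FPKM. On the short arm of chromosome 1, TNFRSF18, TNFRSF4, TNFRSF14, TNFRSF25, TNFRSF9, TNFRSF8 and TNFRSF1B lie between 1203508 and 12209228, a wide span of 11006 kb. Of these 7 loci 6 rose, among them the locus that TNFRSF25 shares with PLEKHG5, while TNFRSF8 did not pass in the deposited count table. Higher loci made up 67.6% of all tested members and 18.0% of all tested loci. Whether position plays a part was not tested. The libraries were directional, but no source used here states how the counting treated strand, so reads of genes on the opposite strand may be included. Among loci that passed, named genes overlap on the opposite strand at LTBR (SCNN1A), TNFRSF12A (CLDN6), TNFRSF14 (TNFRSF14-AS1), FAS (ACTA2), TNFRSF10B (RHOBTB2), TNFRSF25 (ESPN), TNFRSF6B (ARFRP1), CD27 (CD27-AS1), TNFSF10 (TBPL1P1) and TNFSF13B (RNA5SP39), and unnamed ones at LTA, RELT, TNFRSF9, TNFRSF11A and TNFSF12. TNF, LTB, TNFRSF1A, TNFRSF19, TNFSF11 and TNFRSF11B have no gene annotated on the opposite strand.

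Genes that act downstream of these receptors were counted from lists by function, against the same 18.0% higher and 19.7% lower over all tested loci. Of 8 death receptor adaptors and caspases, 6 rose and 0 fell in the deposited count table, and their median log2 value was 0.65, against 0.05 over all tested loci. CASP10 and CASP8, the initiator caspases of death receptors, rose by 6.21 ± 0.36 and by 2.66 ± 0.07 in the authors' deposited count table, while FADD, the adaptor that recruits them, stood at 0.12 ± 0.10 (adjusted p = 0.438). Of 8 TRAF adaptors and partners, 6 rose and 1 fell in the deposited table. In the deposited table TANK, a TRAF-binding regulator, rose by 0.96 ± 0.04, and TRAIP, a ubiquitin ligase also known for DNA repair, fell by 0.78 ± 0.09. Of 12 tested IAP and ubiquitin regulators 9 rose and 0 fell in the deposited table, led by BIRC3, an inhibitor of apoptosis recruited to TNF receptors, at 6.45 ± 0.16 and by TNFAIP3, the NF-κB inhibitor A20, at 2.66 ± 0.06. Among 10 kinases 7 rose and 1, MAP3K5, fell in the deposited table, with MAP3K8 at 4.88 ± 0.19 and the NF-κB-inducing kinase MAP3K14 at 0.65 ± 0.08. The median log2 value was 0.26 for the kinases, 0.42 for the TRAF list and 0.89 for the tested IAP and ubiquitin regulators. All 9 NF-κB subunits and inhibitors rose in the deposited table, among them NFKBIA, which retains NF-κB in the cytoplasm, at 2.66 ± 0.03 and RELB at 2.19 ± 0.06.

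Genes of ligand shedding moved unequally. Of 5 tested, 3 rose and 1 fell in the deposited count table, against 18.0% higher and 19.7% lower over all tested loci. Their median log2 value was 0.14. The locus of the protease inhibitor TIMP3, which holds 2 symbols, fell by 1.72 ± 0.06 in the authors' deposited count table (adjusted p = 3.53e-195). RHBDF1 rose at low levels, with 34.2 counts with cytokines and 18.8 in control (adjusted p = 0.0472 in the authors' deposited table). RHBDF2, a partner that the TNF-releasing protease ADAM17 needs to mature, rose by 2.32 ± 0.07 in the authors' deposited table, ADAM10 by 0.14 ± 0.03, and ADAM17 itself stood at -0.02 ± 0.04 (adjusted p = 0.837). Of 7 tested genes related by name or family but outside the rule, 4 rose and 3 fell in the deposited table, against the same shares. Those that fell were EDA, C1QTNF6 and TNFAIP8. TNFAIP2, a gene named for its induction by TNF, rose by 4.14 ± 0.08, and EDA, the ectodysplasin ligand of EDAR, fell by 1.89 ± 0.10 in the authors' deposited count table (adjusted p = 4.16e-86), to 199 normalized counts with cytokines, against 734 in control.

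The labelled cell type and other cells were checked by markers. Of 11 beta cell genes 2 rose and 5 fell in the deposited count table, against 18.0% higher and 19.7% lower over all tested loci. They moved unequally: G6PC2 stood at 2.35 FPKM with cytokines and 7.96 in control, and IAPP, in a locus of 6 symbols, at 14.1 and 3.84 in the deposited FPKM table. The beta cell genes PDX1, NKX6-1 and SLC30A8 stood at 146, 90.3 and 178 FPKM with cytokines and 145, 91.3 and 273 in control in the deposited FPKM table. INS shared a locus of 7 symbols that was listed at 0 FPKM in both groups but had 38102 normalized counts with cytokines and 56569 in control in the deposited tables. Of 5 T and NK cell markers, 4 were listed at 0 FPKM in both groups, and the list summed to 0.226 FPKM with cytokines and 0.178 in control in the deposited table. The 3 B cell markers summed to 0.0997 and 0.0998 FPKM, and the 4 endothelial markers to 0.0313 and 0.00487, in cytokine and control cells of the deposited table. The 5 macrophage markers summed to 338 FPKM with cytokines and 365 in control, nearly all of it from a locus of 9 symbols that holds CD68, while CD14 stood at 1.13 and 1.29 in the deposited table. The 4 fibroblast markers summed to 7.76 FPKM with cytokines and 3.49 in control, nearly all of it COL1A1, and of the 2 tested 1 was higher and 0 lower in the deposited tables. The 4 duct and acinar markers summed to 87.9 FPKM with cytokines and 83.2 in control, where KRT19 was higher and CPA1 lower in the deposited count table. The part of these in the members' values was not tested.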

How the data were processed

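The submitters' processing notes name build hg38 and, among the tools, Cuffdiff 2.2.1, DESeq, StringTie, STAR 2.5.2b, bcl2fastq and FastQC 0.10.1. The authors' counter, strand setting and annotation are not known here. Per the file headers, the authors' deposited count tables give each locus a mean over all libraries, a signal of read counts divided by size factors, which summed to 40881975 per library. As deposited, log2 values compare cytokine with control, and the count tables add their SE. Each score column the authors deposited is a test statistic, Wald or Cuffdiff. All p-values and q-values come from the tests that the authors ran and deposited (DESeq, Cuffdiff). FPKM was deposited as 1 value per group, from Cuffdiff as the authors ran it. Loci with and without gene names were joined.

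Group counts were solved from each deposited mean and fold change for groups of equal size. At low levels they depend on the fitted fold change and need not equal the reads observed. Intervals (95%) used the deposited SE. Exact (Clopper-Pearson) intervals of ratios with 1 to 3 control counts used rounded sums of the solved group counts. They treat these as observed and cover counting error only. Adjustments ran over all tested genes, except in alternatives that were adjusted again over a subset. These subsets were named loci, loci of at least 10 counts, and genes or transcripts of at least 1 FPKM. Members and lists were chosen with earlier results of these data known. Named were all members, and from each list at most 2 genes past the threshold with the largest change at 50 or more counts in a locus of their own. Promoters were those of the 5 largest rises at 50 or more counts, except that CD27 was replaced by TNFRSF14, next in rank, after its transcripts were seen. Genes outside these rules (FADD, ADAM17, RHBDF1, TIMP3, MAP3K5, C1QTNF6, TNFAIP8, CFLAR, EDARADD, CHUK, REL, BCL3, RNF31 and those that share a locus with a member) were named after their values were seen. Alternatives were other thresholds, filters, centring, pseudocounts and the other tool. Calling, p-value adjustment and re-centring were tested on simulated data. The group counts were checked only against the mean and ratio they are solved from. Other steps were not simulated. The work used matplotlib 3.10.9, scipy 1.17.1, numpy 2.4.6, pandas 2.3.3 and Python 3.11.15.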

Additional observations from a re-analysis of the deposited data

How the results depend on the processing

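The count of members past the threshold in the deposited count table, 28, moved to 18 when Cuffdiff's q took the place of DESeq's adjusted p, and the 18 of the FPKM gene table became 28 with DESeq. Other settings gave 19 to 28 for the count table (19 with a change of at least 2-fold, 21 over loci of 1 symbol, 25 at a threshold of 0.01, 25 over loci of at least 10 counts, 27 after re-centring, 28 when adjusted over named loci), 17 and 16 for the FPKM gene table, and 17 and 16 against 20 for the isoform table (q under 0.01, and at least 1 FPKM). Among single loci, TNFSF4 stood at -0.16 in the count table and 0.60 in the FPKM table. The TNFRSF6B locus, at -0.10, stood at 0.00914 in the FPKM table, and at 0.00856 and 0.00908 with pseudocounts of 1 and 0.1. The cause was not tested. After re-centring by 0.06 on abundant loci, 33 of 34 loci kept their direction and call, the exception being TNFRSF6B. A tested Cuffdiff ratio was available for 28 of the 34 loci, which are not the same 28 that passed in the count table. On that ratio 18 kept both, 8 kept the direction only and 2 reversed. The 2 were TNFRSF6B and TNFSF4, and TNFSF4 passed in neither table. With pseudocounts of 1 and 0.1 on FPKM, 25 and 23 values moved by more than the SE, not counting the TNFRSF6B locus, whose sign reversed. These settings also change the scale from counts to FPKM, and the cause was not tested. No paired analysis was possible because the deposited tables hold no values per library. Leaving out a replicate was not run for the same reason. TNFRSF9 stood at 7.74 in the count table and 5.97 on the Cuffdiff ratio. Depth limits TNFRSF9, CD40, LTA, TNFSF15, TNFRSF4 and TNFRSF18, whose control levels were at most 2.22 normalized counts per library.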
